A study of Mus musculus with 6 samples.

Results

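The C/EBP family of transcription factors was followed in mouse bone marrow-derived macrophages through the messenger RNA of its 6 genes, Cebpa, Cebpb, Cebpd, Cebpe, Cebpg and Ddit3, out of 21886 gene symbols in the deposited table. The genes were taken by symbol, and the family was selected on the measured values of Cebpd and Cebpg in these same 6 libraries. Its differences between the media are therefore given as a description without a test. The symbols matched 7 rows, since 2 Ensembl genes carry the name Ddit3. The row ENSMUSG00000116429, a 105-base feature inside the other Ddit3 gene, had 0 counts in every library, which allows up to 0.171 to 0.265 CPM (read counts scaled to library size, here with TMM factors), and Ddit3 below is ENSMUSG00000025408.

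The receiving cells were wild-type primary macrophages differentiated from bone marrow, kept for 24 h in a mixture of fresh medium with as much medium that alveolar macrophages had conditioned for 48 h. Medium from HTR2C-positive alveolar macrophages was used for 3 samples (libraries P1, P2 and P3) and medium from HTR2C-negative ones to 3 (N1, N2 and N3). HTR2C is the serotonin receptor 2C, and the donors of the alveolar macrophages were mice 8 to 12 weeks old. Both groups thus received alveolar macrophage medium, and the labels do not say whether the numbered samples are separate animals, cultures or batches of medium. Libraries held 15545190 to 15728400 counts with HTR2C-positive medium and 12843971 to 16031723 with HTR2C-negative medium. All 9 macrophage markers examined were detected, with a summed level of 22963 to 25749 CPM with HTR2C-positive and 24290 to 26255 CPM with HTR2C-negative medium. Across groups, P1 and N2 resembled each other more than any other pair did (r = 0.980 over genes), and values without both are given where they differ.

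C/EBP proteins are basic leucine zipper factors: a basic region holds the DNA and the zipper pairs with another family member or with ATF and AP-1 proteins. C/EBP alpha and C/EBP beta work beside PU.1 in myeloid development, C/EBP beta and C/EBP delta carry inflammatory and acute-phase transcription in macrophages, and C/EBP epsilon drives late granulocyte maturation. C/EBP gamma lacks an activation domain and acts through its partners, ATF4 among them, while CHOP, the product of Ddit3, is the stress-induced member that holds other C/EBPs off many of their usual sites.

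With HTR2C-positive medium, the transcript levels of Cebpd and Cebpb were 2.45- and 2.30-fold those with HTR2C-negative medium, and Cebpg stood at 0.502 of its level there. Cebpa had a fold of 1.93, Cebpe of 1.68 and Ddit3 of 1.28. Of the 6 members, 4 (Cebpa, Cebpb, Cebpd and Ddit3) were higher in all 3 HTR2C-positive libraries than in any HTR2C-negative one, 1 (Cebpg) was lower, and Cebpe overlapped. Over all 10177 tested genes, 10.9% were higher and 11.5% lower without overlap, and nothing is read from the members' count because the family was chosen with this contrast known. No gene passed the adjusted threshold of 0.05 in edgeR's quasi-likelihood test (0 of 10177, 0%), members included, while 1690 had an unadjusted p below 0.05. DESeq2 called 394 genes and limma-voom 0. In bulk RNA, fewer cells with a transcript and less of it per cell cannot be told apart.

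**Figure D1:**
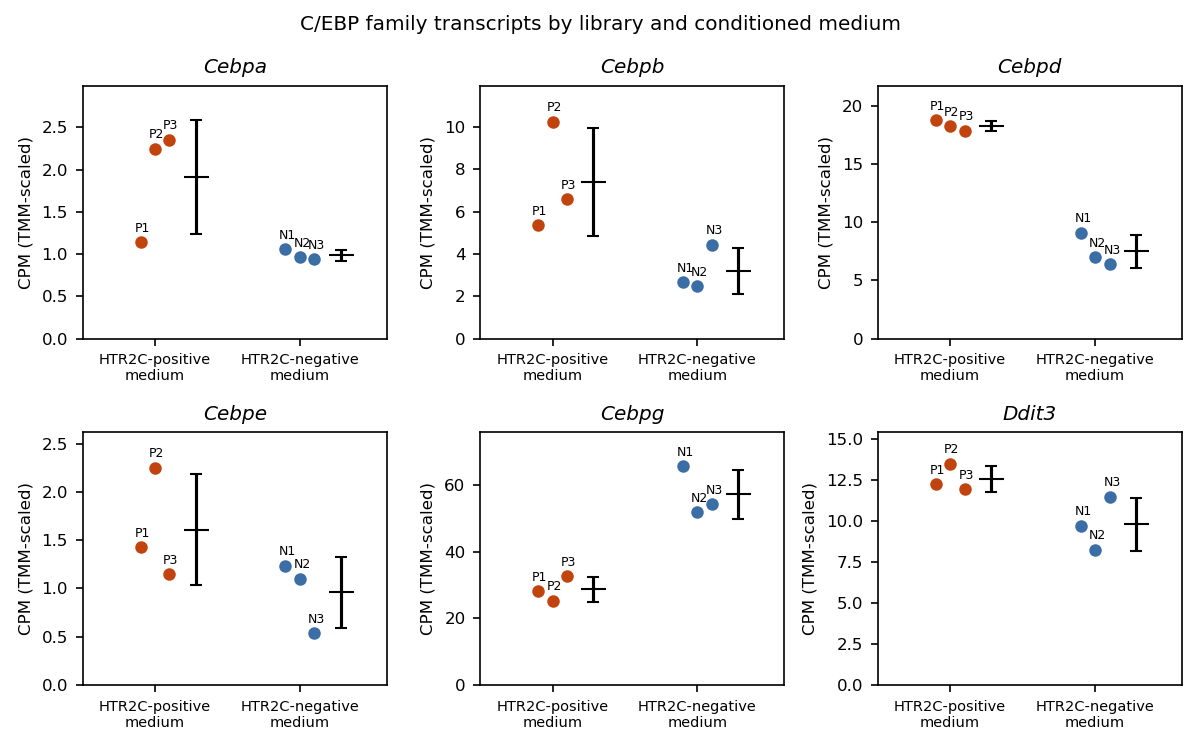
TMM-scaled CPM (y axis, linear from 0) of the 6 family genes in each library, with HTR2C-positive medium (P1 to P3) left of HTR2C-negative medium (N1 to N3); the bar beside each group is the mean ± SD of 3 libraries. The groups of Cebpd and Cebpg stand well apart, those of Cebpa and Ddit3 nearly touch, and those of Cebpe overlap.

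Cebpd (ENSMUSG00000071637, chromosome 16, 15705150 to 15708895, plus strand, GRCm39) encodes C/EBP delta, which inflammatory signals induce within hours. It had 329, 276 and 296 reads in P1, P2 and P3, against 103, 102 and 95 in N1, N2 and N3. As TMM-scaled levels these were 18.8, 18.3 and 17.9 CPM with HTR2C-positive medium and 9.10, 7.01 and 6.38 CPM with HTR2C-negative medium. The lowest HTR2C-positive library was thus 1.96 times the highest HTR2C-negative one. It averaged 18.3 ± 0.443 CPM with HTR2C-positive and 7.50 ± 1.42 CPM with HTR2C-negative medium (SD, n = 3 each), and the spread relative to the mean was 2.42% with HTR2C-positive medium, against 19.0% with HTR2C-negative medium. The log2 fold change was 1.29 (SE 0.21), rank 92 of 10177 among values on the higher side.

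Cebpb (ENSMUSG00000056501, chromosome 2, 167530835 to 167532338, plus strand) encodes C/EBP beta, the member most closely tied to cytokine transcription in activated macrophages. Its reads numbered 94, 155 and 109 in P1, P2 and P3, against 30, 36 and 66 in N1, N2 and N3. The levels were 5.36, 10.3 and 6.58 CPM with HTR2C-positive medium and 2.65, 2.47 and 4.43 CPM with HTR2C-negative medium. P2 and N3 were the high libraries of their groups, and the closest pair, P1 and N3, differed by a factor of 1.21. The log2 fold change was 1.20 (SE 0.34), with 0.90 without P2 and 1.54 without N3.

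Cebpg (ENSMUSG00000056216, chromosome 7, 34745847 to 34755998, minus strand) was the member with lower values. It had 493, 382 and 540 reads in P1, P2 and P3, against 742, 755 and 807 in N1, N2 and N3. That came to 28.1, 25.3 and 32.6 CPM with HTR2C-positive medium and 65.6, 51.9 and 54.2 CPM with HTR2C-negative medium. The highest HTR2C-positive library, P3, was at 0.629 of the lowest HTR2C-negative one, N2. The spread relative to the mean was 12.9% with HTR2C-positive and 12.8% with HTR2C-negative medium. The log2 fold change was -0.996 (SE 0.17), rank 142 of 10177 on the lower side. On the higher side Cebpb ranked 134, Cebpa 316, Cebpe 661 and Ddit3 2321. The family was chosen on Cebpd and Cebpg, so nothing is read from the rank of either.

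Ddit3 (chromosome 10, 127126643 to 127132157, plus strand) encodes CHOP. It had 12.3, 13.5 and 12.0 CPM with HTR2C-positive medium, against 9.72, 8.24 and 11.5 CPM with HTR2C-negative medium. The groups were separated by a factor of 1.04 between P3 and N3. The log2 fold change was 0.36 (SE 0.21), with 0.50 without N3 and 0.25 without N2.

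Cebpa (ENSMUSG00000034957, chromosome 7, 34818718 to 34821353, plus strand) encodes the C/EBP of myeloid commitment and was counted with few reads. Only 20, 34 and 39 reads were counted in P1, P2 and P3, against 12, 14 and 14 in N1, N2 and N3. The levels were 1.14, 2.25 and 2.36 CPM with HTR2C-positive medium and 1.06, 0.962 and 0.940 CPM with HTR2C-negative medium. P1 lay nearer to the HTR2C-negative libraries than to P2 and P3. The log2 fold change was 0.95 (SE 0.51), and 1.24 without P1.

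Cebpe (ENSMUSG00000052435, chromosome 14, 54947817 to 54949631, minus strand), the granulocytic member, was as scarce. It had 25, 34 and 19 reads in P1, P2 and P3, against 14, 16 and 8 in N1, N2 and N3, or 1.43, 2.25 and 1.15 CPM with HTR2C-positive and 1.24, 1.10 and 0.537 CPM with HTR2C-negative medium. P3 fell below N1, so the groups overlapped (log2 fold change 0.75, SE 0.56). Without P2 the value was 0.43. Cebpe reached the expression filter in 3 HTR2C-positive and 2 HTR2C-negative libraries, the other 5 members in all 6. Among 9 neutrophil markers, Ly6g and Cxcr2 had 0 counts in every library, and the summed level was 1010 to 1260 CPM with HTR2C-positive and 867 to 1062 CPM with HTR2C-negative medium. Most of that sum came from its most abundant marker, and Mmp8, given below, ran the other way without overlap. The 4 granulocyte precursor markers summed to 5.49 to 12.4 CPM with HTR2C-positive and 4.10 to 7.90 CPM with HTR2C-negative medium. Their part in the Cebpe values was not tested. Without libraries P1 and N2, the log2 fold changes were 1.25 for Cebpd, 1.25 for Cebpb, 1.21 for Cebpa, 0.96 for Cebpe, 0.27 for Ddit3 and -1.03 for Cebpg.

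Per transcript length, the order of the family differed between the media. In deposited FPKM (fragments scaled to gene length and library total), Ddit3 was first in each of the 3 HTR2C-positive libraries and Cebpg first in each of the 3 HTR2C-negative ones. With HTR2C-positive medium Ddit3 averaged 7.69 ± 0.332 FPKM (SD, n = 3), followed by Cebpg at 5.38 ± 0.956, Cebpd at 5.14 ± 0.482 and Cebpb at 5.08 ± 1.32. Those last 3 did not differ beyond their spread and changed places between libraries. With HTR2C-negative medium Cebpg averaged 9.67 ± 0.667 FPKM, Ddit3 5.44 ± 0.682, Cebpb 2.01 ± 0.636 and Cebpd 1.90 ± 0.288, and Cebpb and Cebpd could not be ordered. Cebpe (1.34 ± 0.381 FPKM with HTR2C-positive and 0.739 ± 0.294 FPKM with HTR2C-negative medium) came next to last and Cebpa (0.753 ± 0.239 FPKM with HTR2C-positive and 0.357 ± 0.0277 FPKM with HTR2C-negative medium) last in all 6 libraries.

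Cebpg held 22.4%, 16.8% and 24.4% of the summed family FPKM in P1, P2 and P3, against 50.9%, 49.1% and 44.3% in N1, N2 and N3. The shares of Cebpd were 22.4%, 18.2% and 20.1% in P1, P2 and P3, against 10.6%, 9.95% and 7.82% in N1, N2 and N3. Ddit3 took 29.4% to 32.1% with HTR2C-positive and 24.7% to 30.8% with HTR2C-negative medium, so its share overlapped between the groups. Cebpb held 16.0% to 25.5% with HTR2C-positive and 7.69% to 13.5% with HTR2C-negative medium. These shares compare genes within a library and do not depend on how libraries are scaled to each other. They do hold the trend with GC content and length described below. Its fitted difference between the media ran from -0.26 for Ddit3 to 0.59 for Cebpb on the log2 scale, and shares without it are not given. As the family was chosen on Cebpd and Cebpg, nothing is read from the separation of their shares.

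**Figure D2:**
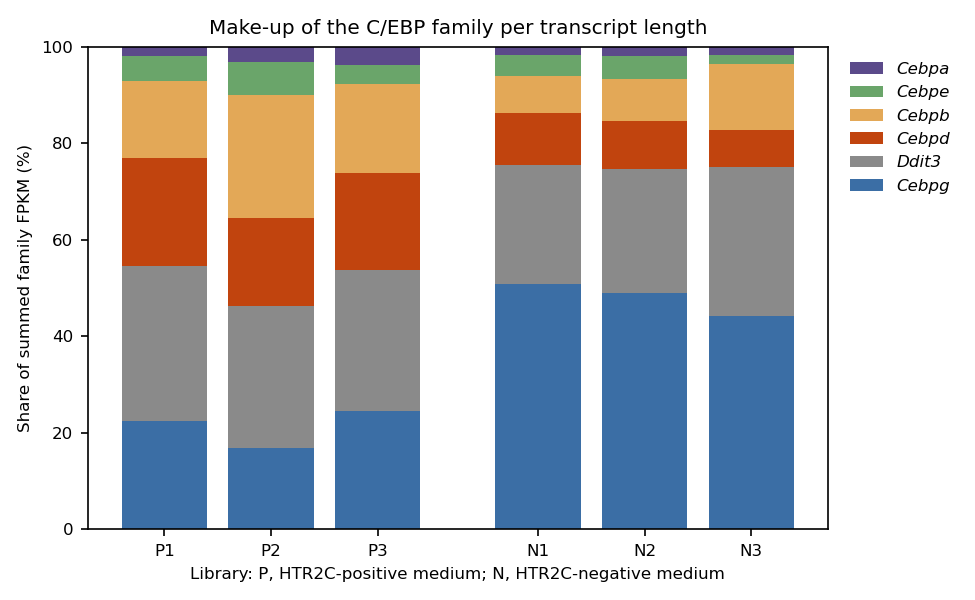
Share of each member in the summed FPKM of the 6 family genes (y axis, percent), stacked for each library, HTR2C-positive medium (P1 to P3) left and HTR2C-negative medium (N1 to N3) right. The bottom segment, Cebpg, is 16.8% to 24.4% in the HTR2C-positive libraries and 44.3% to 50.9% in the HTR2C-negative ones.

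The ratio of Cebpd to Cebpg, an inducible activator set against the member without an activation domain, was 1.00, 1.08 and 0.823 in FPKM in P1, P2 and P3, against 0.208, 0.203 and 0.177 in N1, N2 and N3. The ratio of Cebpb to Cebpg was 0.713, 1.52 and 0.754 with HTR2C-positive medium, against 0.151, 0.178 and 0.306 with HTR2C-negative medium, and neither ratio overlapped. In contrast, Cebpd to Cebpb ranged from 0.715 to 1.41 with HTR2C-positive and from 0.578 to 1.38 with HTR2C-negative medium, overlapping nearly in full. The family was chosen on the values of Cebpd and Cebpg, so nothing is read from the separation of either ratio to Cebpg. The ratio of Cebpb to Cebpg also holds the trend with GC content and length described below, 0.59 for Cebpb and -0.21 for Cebpg on the log2 scale.

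The summed level of the family depended on the scaling. In FPKM, which scale to total counts, it was 25.1, 25.7 and 25.3 in P1, P2 and P3 and 20.2, 19.9 and 20.2 in N1, N2 and N3, with no overlap. With TMM factors in place of total counts it was 22.3, 26.7 and 23.8 with HTR2C-positive and 22.9, 18.8 and 21.8 with HTR2C-negative medium, and P1 fell below N1. RLE factors also gave overlap. With TMM factors and the GC and length trend described below removed, the groups did not overlap. The sum was then 22.7, 25.1 and 23.8 in P1, P2 and P3 and 21.5, 19.0 and 21.6 in N1, N2 and N3. Scaling to total counts moved the median log2 fold change of all tested genes by 0.14. The directions of the 6 single genes were the same under TMM, RLE and total counts, and Cebpe alone lost its overlap under total counts, at 1.22 to 2.16 CPM with HTR2C-positive and 0.499 to 1.16 CPM with HTR2C-negative medium.

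Fold changes in this series followed base composition, which differs widely within the family. Over tested genes the median log2 fold change was -0.27 in the lowest of 5 equal bins of transcript GC content and 0.41 in the highest bin. Cebpb has 67.2% GC, Cebpa 62.6% and Cebpe 61.5%, each at or above 99.1% of tested genes, while Cebpd has 51.6%, Ddit3 45.6% and Cebpg 43.3%. The fitted trend with GC and length amounted to 0.59 for Cebpb, 0.50 for Cebpa and 0.46 for Cebpe on the log2 scale, 0.09 for Cebpd, -0.21 for Cebpg and -0.26 for Ddit3.

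With the trend removed from each library, the log2 fold changes were 1.20 for Cebpd, 0.61 for Ddit3, 0.58 for Cebpb, 0.46 for Cebpa, 0.29 for Cebpe and -0.78 for Cebpg. Cebpd (17.3, 18.0 and 17.7 CPM in P1, P2 and P3, 9.66, 6.94 and 6.64 CPM in N1, N2 and N3) and Cebpg (31.0, 27.2 and 34.4 CPM in P1, P2 and P3, 57.6, 50.9 and 50.3 CPM in N1, N2 and N3) still did not overlap. Ddit3 moved further apart, with 14.0, 13.9 and 13.3 CPM with HTR2C-positive and 8.11, 8.46 and 10.3 CPM with HTR2C-negative medium. Cebpa and Cebpb overlapped: Cebpb was at 4.53, 7.78 and 5.40 CPM in P1, P2 and P3 and at 3.26, 2.70 and 5.87 CPM in N1, N2 and N3. The direction held for all 6 genes, and the separation for Cebpd, Cebpg and Ddit3. The trend is itself a difference between the groups, so its part and that of the medium cannot be told apart.

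**Figure D3:**
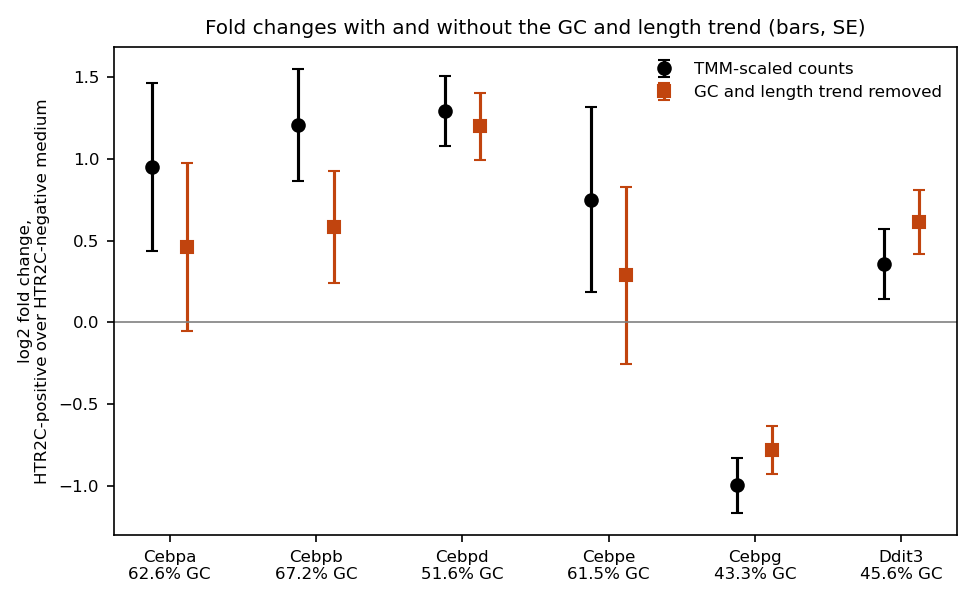
Log2 fold change (y axis, HTR2C-positive over HTR2C-negative medium) of each family gene, with SE bars, from TMM-scaled counts (black circles) and after removal of the trend with GC content and length (orange squares); transcript GC content stands under each symbol. Removal lowers the values of the GC-rich Cebpa, Cebpb and Cebpe, leaves Cebpd near 1.20 and raises Ddit3 to 0.61.

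Cebpg and Cebpa lie next to each other on chromosome 7, on opposite strands, 62719 bases apart and with no other gene of the table between them. Their log2 fold changes had opposite signs, -0.996 (SE 0.17) for Cebpg and 0.95 (SE 0.51) for Cebpa. The value of Cebpa rests on 12 to 39 reads per library. With the GC and length trend removed it was 0.46, with overlapping groups. The next tested genes on either side, the peptidase gene Pepd beyond Cebpg and Gpatch1 beyond Cebpa, had log2 fold changes of 0.33 (SE 0.23) and -0.45 (SE 0.29). In the GENCODE M21 annotation the longest transcripts of Cebpa, Cebpb and Cebpd have 1 exon and those of Cebpe, Cebpg and Ddit3 have 2.

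Of the family, 3 genes overlap a gene on the other strand, and whether the counting used strand is not given in the sources used here. Cebpd overlaps Spidr, which was at 11.1, 8.13 and 9.12 CPM in P1, P2 and P3 and 10.2, 15.9 and 9.34 CPM in N1, N2 and N3. The log2 fold change of Spidr was -0.32 (SE 0.25), opposite in sign to Cebpd. Cebpb overlaps Peds1 (25.2, 35.6 and 51.3 CPM in P1, P2 and P3, 28.4, 23.2 and 25.3 CPM in N1, N2 and N3, log2 fold change 0.55, SE 0.23), which exceeded it in every library. Ddit3 overlaps Mars1, which was at 2.84 to 5.36 CPM with HTR2C-positive and 2.03 to 3.92 CPM with HTR2C-negative medium (log2 fold change 0.47, SE 0.38). Peds1 and Mars1 thus had the sign of the member they overlap. How reads were shared between these pairs was not tested.

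RefSeq promoter sequences (GRCm38.p6, 250 bases before to 50 after the annotated start) were at hand for 4 of the 6 members. They are shown so that Cebpg, the member with lower values, can be set beside its neighbour Cebpa and the other members with higher ones. Capitals mark matches, on either strand, to the TATA box TATAAA, the box named for its letters CCAAT, the cyclic AMP response half-site TGACG and the AP-1 site TGACTCA. Matches to the C/EBP pattern TTGCNNAA, the C/EBP and ATF composite TGATGNAAT and the STAT site TTCNNNGAA were looked for likewise.
Cebpg (chr7:35056517-35056816, minus strand): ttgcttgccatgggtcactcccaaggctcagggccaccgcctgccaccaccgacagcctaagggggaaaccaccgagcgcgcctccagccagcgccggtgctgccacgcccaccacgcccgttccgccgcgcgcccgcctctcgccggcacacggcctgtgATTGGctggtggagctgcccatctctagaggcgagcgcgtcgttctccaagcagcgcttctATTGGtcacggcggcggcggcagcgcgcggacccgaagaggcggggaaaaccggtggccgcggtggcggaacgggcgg
Cebpa (chr7:35119043-35119342, plus strand): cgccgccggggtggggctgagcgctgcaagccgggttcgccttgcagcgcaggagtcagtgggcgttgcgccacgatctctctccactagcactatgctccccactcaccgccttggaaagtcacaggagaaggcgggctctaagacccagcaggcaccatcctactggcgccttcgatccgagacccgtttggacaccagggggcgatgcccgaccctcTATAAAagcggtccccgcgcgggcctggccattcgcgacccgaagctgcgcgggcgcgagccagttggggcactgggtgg
Cebpb (chr2:167688665-167688964, plus strand): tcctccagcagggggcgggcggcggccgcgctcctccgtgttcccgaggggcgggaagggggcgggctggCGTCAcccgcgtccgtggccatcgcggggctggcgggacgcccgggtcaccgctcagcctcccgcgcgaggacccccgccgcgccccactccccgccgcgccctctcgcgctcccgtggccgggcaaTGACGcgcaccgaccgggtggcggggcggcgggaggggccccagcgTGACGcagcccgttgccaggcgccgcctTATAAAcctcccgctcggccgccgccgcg
Ddit3 (chr10:127290543-127290842, plus strand): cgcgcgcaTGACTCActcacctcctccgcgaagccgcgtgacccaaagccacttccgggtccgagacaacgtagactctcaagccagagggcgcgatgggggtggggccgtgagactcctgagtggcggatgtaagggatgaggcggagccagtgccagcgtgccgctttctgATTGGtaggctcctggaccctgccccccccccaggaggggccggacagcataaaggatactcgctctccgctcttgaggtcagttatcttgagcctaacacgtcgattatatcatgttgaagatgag

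The Cebpg window held 2 CCAAT boxes, both read on the opposite strand, at 89 and 28 bases before the start, and no TATAAA. The windows of Cebpa and Cebpb held a TATAAA, in Cebpa 30 bases before the annotated start and in Cebpb 22 bases after it. Cebpb also held 3 TGACG half-sites and 5 GC boxes (GGGCGG), Cebpg 1 GC box 45 bases after the start, and Ddit3 an AP-1 match and a CCAAT box. Of all 32851 promoter windows, 37.4% hold CCAAT, 13.6% TATAAA, 20.8% TGACG, 35.7% GGGCGG and 5.20% TGACTCA. The C/EBP pattern (10.8% of windows), the composite (0.965%) and the STAT pattern (8.30%) had no match in these 4 windows. GC content was 80.7% in the Cebpb window, 71.7% in Cebpg, 67.3% in Cebpa and 60.7% in Ddit3, against a median of 52.7%. Matches describe these letters only and are not evidence of binding.

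Basic leucine zipper genes outside the family include the partners with which C/EBPs form mixed dimers. Of 16 listed, 12 were tested, 9 of them with a positive value (median 0.32), against 5301 of all 10177 tested genes (median 0.02). None passed the adjusted threshold, while an unadjusted p below 0.05 was seen for 4 on the higher and 1 on the lower side, where 7.9% and 8.71% of all tested genes were. Atf4, the partner of C/EBP gamma and CHOP in the stress response, was at 59.9, 54.8 and 46.8 CPM in P1, P2 and P3 and 43.4, 40.8 and 43.9 CPM in N1, N2 and N3, without overlap. Its log2 fold change of 0.34 (SE 0.15) was opposite in sign to that of Cebpg, and was 0.10 with the GC and length trend removed. Batf, which pairs with C/EBP beta, had 151, 130 and 130 CPM with HTR2C-positive and 108, 115 and 112 CPM with HTR2C-negative medium (0.30, SE 0.14, and 0.03 with the trend removed). Batf2, a related factor of interferon-treated macrophages, had a log2 fold change of 0.53 (SE 0.17, and 0.22 with the trend removed). Jun, an AP-1 subunit, had 0.69 (SE 0.30, and 0.41 with the trend removed). Junb was at 365 CPM in P1 and at 90.7 and 84.7 CPM in P2 and P3, against 40.7, 111 and 59.4 CPM in N1, N2 and N3, so its value of 1.35 (SE 0.53) rested on P1. Atf2 had -0.37 (SE 0.16, and -0.08 with the trend removed) and Fos -0.46 (SE 0.26, and -0.49 with the trend removed). Scaled to total counts, 7 were on the higher and 0 on the lower side. With the GC and length trend removed, 0 were higher and 0 lower and the median was 0.12. The higher genes numbered 0 without N1, 1 without N3, 2 without N2 and 2 without P1. Over all tested genes, scaling to total counts gave a median of 0.16. Here and for the lists below, shares of all tested genes at that p are given for the main fit only. Nothing is therefore read from how list counts move between settings.

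Of 24 receptors, regulators and degraders that act on C/EBPs, 22 were tested, 17 of them with a positive value (5301 of 10177 over all tested genes), with a median of 0.28. An unadjusted p below 0.05 was seen for 6 on the higher side (7.9% of all tested genes) and 1 on the lower (8.71%), and an adjusted one for 0. Spi1, which encodes PU.1, the factor that shares many macrophage enhancers with C/EBPs, was at 141, 97.9 and 102 CPM in P1, P2 and P3 and at 79.3, 82.6 and 65.0 CPM in N1, N2 and N3 (log2 fold change 0.59, SE 0.18, and 0.18 with the trend removed). Rela, the NF-kB subunit that cooperates with C/EBP beta, was at 34.4, 39.3 and 37.1 CPM with HTR2C-positive and 17.9, 24.7 and 25.9 CPM with HTR2C-negative medium (0.69, SE 0.18, and 0.27 with the trend removed). Celf1, an RNA-binding protein gene, had 0.37 (SE 0.15, and 0.45 with the trend removed). Csf3r, the receptor of granulocyte colony-stimulating factor, had 0.46 (SE 0.16, and 0.25 with the trend removed). This list shares genes with the granule and receptor list below, and some, Csf3r among them, count on the higher side in both. The number of higher genes was 2 without N1, 2 without N3 and 9 without P2, and 3 with the trend removed. Without P1 and N2 together, 8 were on the higher and 3 on the lower side. In that setting 1107 of all tested genes passed the adjusted threshold, against 0 in the main fit.

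Inflammatory and acute-phase genes that C/EBP beta and delta are known to bind had a median log2 fold change of 0.07, which was 0.21 under scaling to total counts and 0.18 with the trend removed. Of 24 listed, 22 were tested, 12 of them with a positive value, against 5301 of 10177 over all tested genes. An unadjusted p below 0.05 was seen for 5 on the higher side, where 7.9% of all tested genes were, and for 1 on the lower, where 8.71% were, and 0 passed the adjusted threshold. Lcn2, the lipocalin that withholds iron from bacteria, was at 123, 228 and 188 CPM in P1, P2 and P3 and 80.7, 91.6 and 115 CPM in N1, N2 and N3. Il6, whose product itself raises C/EBP beta and delta, pointed the other way, with 331, 490 and 401 CPM with HTR2C-positive and 713, 472 and 619 CPM with HTR2C-negative medium, P2 lying above N2 (log2 fold change -0.56, SE 0.19, and -0.12 with the trend removed). Tnf was at 789 CPM in P1 and at 315 and 321 CPM in P2 and P3, against 234, 354 and 242 CPM in N1, N2 and N3. Ptges, a prostaglandin E synthase gene, was at 407, 413 and 453 CPM with HTR2C-positive and 277, 378 and 321 CPM with HTR2C-negative medium (log2 fold change 0.38, SE 0.16, and 0.22 with the trend removed). Lcn2 and Tnf had log2 fold changes of 0.90 and 0.78, and of 0.73 and 0.75 with the trend removed. The higher genes numbered 1 without N1, 2 without N3, 3 without P3, 8 under scaling to total counts and 4 with the trend removed, where 0 were on the lower side. Without P1 and N2 together, 7 were on the higher and 5 on the lower side.

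Granule proteins and myeloid receptors, classical targets of C/EBP alpha and epsilon, had a positive value more often than not. Of 18 listed, 17 were tested, 15 of them with a positive value (median 0.36, and 0.27 with the trend removed), against 5301 of 10177 over all tested genes. An unadjusted p below 0.05 was seen for 5 on the higher side (7.9% of all tested genes) and 1 on the lower (8.71%), and 0 passed the adjusted threshold. Csf1r, the receptor of macrophage colony-stimulating factor, was at 171, 130 and 191 CPM in P1, P2 and P3 and at 83.8, 127 and 106 CPM in N1, N2 and N3. Camp, the cathelicidin gene, was at 20.3, 20.6 and 16.6 CPM with HTR2C-positive and 14.0, 12.9 and 12.8 CPM with HTR2C-negative medium. The log2 fold changes of Csf1r and Camp were 0.63 (SE 0.19) and 0.53 (SE 0.19), and 0.36 and 0.29 with the trend removed. Mmp8, a granule collagenase gene, ran the other way, at 39.4, 30.6 and 40.7 CPM with HTR2C-positive and 57.5, 51.3 and 45.9 CPM with HTR2C-negative medium (log2 fold change -0.48, SE 0.17, and -0.17 with the trend removed). The higher genes numbered 2 without N1, 3 without N3, 3 without P1 and 1 with the trend removed, where 0 were on the lower side.

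Values lay on both sides for the genes listed as downstream of ATF4 and CHOP in the integrated stress response. That list also holds genes of the wider unfolded protein response, Dnajb9 among them. Atf4 itself is in it too, and counts on the higher side both here and among the basic leucine zipper genes. Of 22 listed, 20 were tested, 12 of them with a positive value (median 0.17, and -0.004 without P1), against 5301 of 10177 over all tested genes. An unadjusted p below 0.05 was seen for 4 on the higher side (7.9% of all tested genes) and 3 on the lower (8.71%), and 0 passed the adjusted threshold. Gadd45a, a growth arrest gene, was at 6.84, 12.0 and 9.79 CPM in P1, P2 and P3 and 5.04, 6.11 and 4.97 CPM in N1, N2 and N3 (log2 fold change 0.82, SE 0.27). Ddit4, a stress-induced inhibitor of mTORC1, was at 5.69 CPM in P2 and 1.83 and 2.42 CPM in P1 and P3, against 1.28 to 1.58 CPM with HTR2C-negative medium. The endoplasmic reticulum genes Dnajb9, a chaperone partner, and Herpud1, of protein degradation, had lower values without overlap. Dnajb9 had 22.5, 38.2 and 25.9 CPM with HTR2C-positive and 60.9, 39.5 and 47.2 CPM with HTR2C-negative medium, and Herpud1 95.9, 97.5 and 94.8 CPM with HTR2C-positive and 131, 120 and 120 CPM with HTR2C-negative medium. Scaled to total counts, 6 were on the higher and 1 on the lower side (median 0.31), and with the trend removed 2 and 1. The higher genes numbered 1 without N1, 1 without N3, 2 without P1 and 1 without P2, and the lower ones 1 without N1, 1 without N3, 1 without P3, 2 without N2 and 2 without P2.

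**Figure D4:**
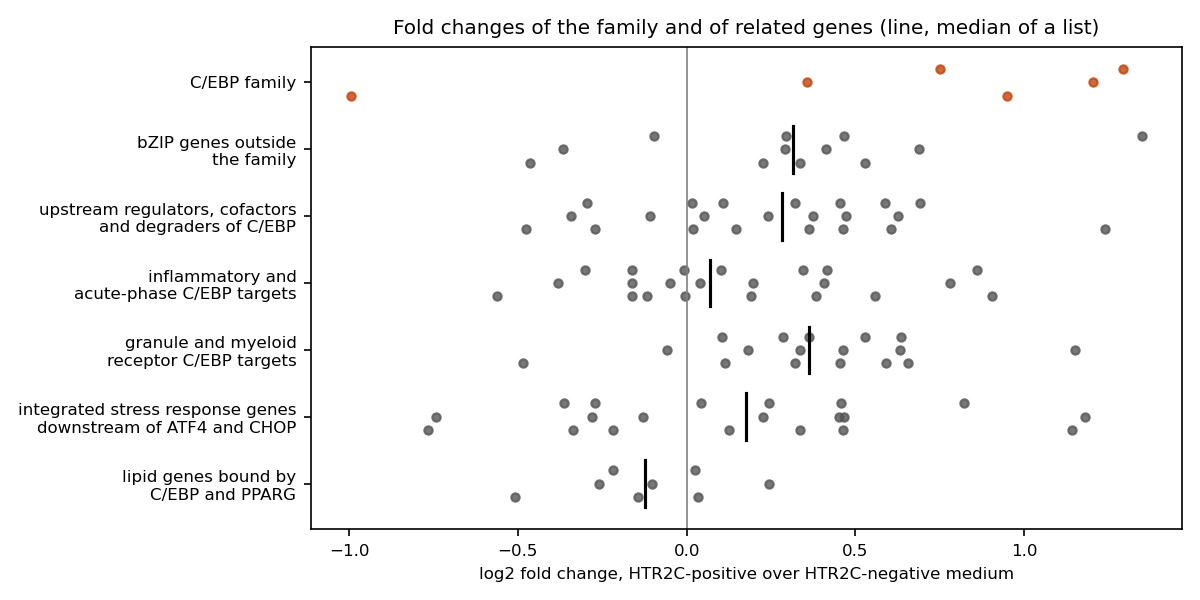
Log2 fold change (x axis, HTR2C-positive over HTR2C-negative medium) of the 6 family genes (top row, orange) and of the tested genes of 6 lists of related genes (grey); each point is a gene and each vertical line the median of a list. Family genes lie between -0.996 and 1.29, with Cebpg alone below 0, and list medians between -0.12 and 0.36.

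The genes whose profile over the 6 libraries was nearest to each member were found by the root mean square difference of centred log2 CPM, over the 5316 genes that averaged 10 CPM or more. Nearest to Cebpd were C1qc, a complement C1q chain (0.17), Lst1 (0.30) and Lrp10 (0.31). Nearest to Cebpg were Zbtb38 (0.10), Zfp386 (0.11) and Zcchc7 (0.12). Zcchc7 was at 24.5, 20.5 and 23.3 CPM in P1, P2 and P3 and at 47.7, 36.7 and 38.3 CPM in N1, N2 and N3, high in N1 as Cebpg was. Nearest to Cebpb were Lcn2 (0.23), Bri3 (0.25) and Lrp10 (0.26), to Ddit3 Cox19 (0.04), Rpl35a (0.07) and Rps27 (0.08), to Cebpa Diaph1 (0.17), Mfsd5 (0.17) and Rps12 (0.18), and to Cebpe Get4 (0.20), Scarf1 (0.26) and Maea (0.27). The members themselves spanned 0.70 (Ddit3) to 1.99 (Cebpb) log2 units over the libraries. With 6 libraries in 2 groups, many genes share such a profile.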

How the data were processed

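RNA-seq was made from 6 libraries, 3 per medium, placed in groups by their titles. Per the labels' protocols, RNA was extracted with Trizol and libraries made with the VAHTS Universal V6 kit. Per the submitters' processing notes, fastp, HISAT2, StringTie and edgeR were used with build GRCm39, while their versions and the counting settings are not stated. Per the file headers, the deposited table holds raw read counts per gene. The deposited FPKM values were scaled by the authors to gene length and total counts.

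Counts were tested in R 4.3.3 with edgeR 4.0.16: filterByExpr (10177 genes kept), TMM factors, robust quasi-likelihood F test without covariates, Benjamini-Hochberg over all tested genes at 0.05. A positive log2 fold change means a higher level with HTR2C-positive medium. CPM are TMM-scaled, and the floors given for 0 counts cover counting error only. The SE of a fold change comes from the quasi-likelihood fit, and both SE and SD include spread between libraries. Since no label says that samples came from separate cultures, p-values reflect only their own spread, possibly a technical one. The GC and length trend was fitted in each library with mgcv 1.9.3 on transcripts of GENCODE M21 (another build, used for GC and exon number only, 99.9% of tested genes matched) and removed as offsets. Alternatives used DESeq2 1.42.0 and limma 3.58.1. The tests were tried on simulated counts.

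The lists share 7 genes, so their counts are not separate results. The members, the gene lists and the tests were chosen with earlier results of these data known. The text names all members, up to 4 genes with the smallest p in each list, Atf4, Batf and Fos, and the 3 genes nearest to each member in profile. Spidr, Peds1, Mars1, Pepd and Gpatch1 are named for their position.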

Additional observations from a re-analysis of the deposited data

How the results depend on the processing

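The 6 members kept their direction under all 16 alternatives, of which leaving out N2 and P1 together was chosen after seeing the data. With the GC and length trend removed, values moved by more than the spread between replicates to 0.46 for Cebpa, 0.58 for Cebpb, -0.78 for Cebpg and 0.61 for Ddit3. With a replicate block in addition they were 0.41, 0.61, -0.78 and 0.62 for the same genes. Other alternatives moved no member by more than that spread. Leaving out single libraries gave 1.20 to 1.45 for Cebpd and -1.09 to -0.89 for Cebpg. Genes past the adjusted threshold numbered 422 without a count filter, 394 in DESeq2 and 1107 without N2 and P1, and 0 to 206 with single libraries left out (206 without N2, 186 without P1). The cause was not tested. With the replicate block alone 0 genes passed. Same-numbered samples did not deviate together (r = -0.15, -0.23 and 0.05), so the numbers were not taken as pairs. The lowest counts, 8 to 39 reads for Cebpa and Cebpe, limit what can be said of those genes.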

Other observations

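Lipid genes bound by C/EBP alpha and PPAR gamma, a C/EBP target set of fat cells that foamy macrophages also use, had no values on the higher side at an unadjusted p below 0.05, and 1 of the 8 tested was lower, with 0 past the adjusted threshold. Over all tested genes the shares at that p were 7.9% on the higher and 8.71% on the lower side. With the GC and length trend removed, 1 was on the higher side, Acsl1, and 1 on the lower, Plin2 in place of Cd36. The list median was -0.12, 0.03 under scaling to total counts and 0.01 once the trend was taken out. Cd36, a fatty acid and scavenger receptor gene, was at 468, 532 and 562 CPM in P1, P2 and P3, against 812, 683 and 728 CPM in N1, N2 and N3 (log2 fold change -0.51, SE 0.15, and -0.12 with the trend removed). Plin2, which coats lipid droplets, was at 955, 767 and 873 CPM in P1, P2 and P3 and at 979, 1131 and 911 CPM in N1, N2 and N3, with P1 above N3 (log2 fold change -0.22, SE 0.16, and -0.32 with the trend removed). Acsl1, an acyl-CoA synthetase gene, had a log2 fold change of 0.24 (SE 0.15, and 0.40 with the trend removed) and Abca1, a cholesterol exporter gene, -0.26 (SE 0.21), both with overlapping groups.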
